A study of Mus musculus with 16 samples.

Results

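The 40 genes described here encode transcription factors of 4 families, and they were taken by name from the 21851 protein-coding genes of the GENCODE M21 annotation of the mouse genome (mm10). They comprise 19 SOX genes, 11 NKX genes, 6 IRX genes and 4 ZIC genes. A promoter was taken as 1 kb either side of each annotated start of protein-coding transcripts, and the gene was taken as its body with 1 kb added to each side. The rule takes genes by name and no measured value, although earlier results of these data were known when the families were chosen.

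Hematopoietic stem cells (HSCs), the cells of the bone marrow that give rise to all blood lineages, were sorted from young C57BL/6 mice (10 weeks old) and aged C57BL/6 mice (20 months old) as lineage-negative cells that were c-Kit+, Sca-1+ and CD150+ and lacked CD48, CD34, Flt3 and the IL-7 receptor. All mice were female by the study's methods, bone marrow was pooled across mice before sorting, and no allele or treatment separated the groups. ChIP-seq gave 2 libraries for each of 3 histone marks at each age and 2 input libraries at each age, 16 libraries in 8 groups. The values analysed here are 6 lists of enriched regions, 1 for each mark and age, deposited as pooled. No spread between replicates could therefore be measured, no difference between the ages was tested, and all differences below are differences between 2 lists.

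Histone H3 trimethylated at lysine 4 (H3K4me3) is found at promoters in use or ready for use. Trimethylation of H3 at lysine 27 (H3K27me3) is the product of Polycomb repressive complex 2, and monoubiquitination of a lysine in the tail of histone H2A (H2AK119ub1) is the product of Polycomb repressive complex 1. Both complexes keep developmental regulators silent in cells of other lineages. SOX factors bind DNA through a high-mobility-group box and direct neural, endothelial, cartilage and germ cell fates. NKX factors carry a homeodomain and pattern the heart, lung, thyroid, pancreas and ventral neural tube. IRX (Iroquois) factors are homeodomain proteins encoded in gene clusters that pattern the heart, limb and nervous system. ZIC factors carry zinc fingers and act in the forebrain and cerebellum. Few of these genes have a known place in blood. Sox17 is needed by fetal HSCs, Sox4 acts in early B cells, and Sox6 represses embryonic globin genes in red cell precursors.

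The promoters of 4 genes are shown because they carry the range of states found among the 40 genes. Nkx2-3 shared with Irx3 the highest H3K4me3 fold enrichment at a promoter. Zic4 had the greatest length of H3K27me3 in young HSCs. Nkx2-2 was the member with all 3 marks at its promoters at an age and the greatest covered length. Sox15 had no region of any mark, and among such members with an entry in the table of promoters its CpG content was the lowest. Each sequence is the 250 bases before the start site, 5′ to 3′ on the strand of the gene, from RefSeq on GRCm38.p6 (mm10), with CpG dinucleotides in capitals. Of the 40 genes, 28 had an entry in the RefSeq table used.
Nkx2-3: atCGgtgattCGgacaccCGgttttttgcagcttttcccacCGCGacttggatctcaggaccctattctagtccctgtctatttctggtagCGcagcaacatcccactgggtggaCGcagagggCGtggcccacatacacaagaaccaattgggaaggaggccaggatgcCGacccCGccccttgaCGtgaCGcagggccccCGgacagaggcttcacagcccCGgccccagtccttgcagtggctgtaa
Zic4: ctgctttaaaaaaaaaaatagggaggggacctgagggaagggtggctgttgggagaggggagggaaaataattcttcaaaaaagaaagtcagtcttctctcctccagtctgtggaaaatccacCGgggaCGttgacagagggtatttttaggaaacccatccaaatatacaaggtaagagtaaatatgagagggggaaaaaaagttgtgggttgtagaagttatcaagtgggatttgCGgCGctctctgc
Nkx2-2: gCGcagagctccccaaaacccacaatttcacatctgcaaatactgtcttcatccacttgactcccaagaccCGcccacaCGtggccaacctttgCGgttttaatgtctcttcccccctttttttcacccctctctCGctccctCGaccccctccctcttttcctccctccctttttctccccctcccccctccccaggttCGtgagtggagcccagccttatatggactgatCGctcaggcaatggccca
Sox15: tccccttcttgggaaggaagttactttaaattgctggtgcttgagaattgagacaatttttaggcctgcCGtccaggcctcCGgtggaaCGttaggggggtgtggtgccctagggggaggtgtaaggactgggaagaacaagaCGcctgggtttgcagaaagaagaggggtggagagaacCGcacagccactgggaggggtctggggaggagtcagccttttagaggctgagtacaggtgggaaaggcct
The Nkx2-3 sequence (chr19:43612075-43612324, plus strand) holds 14 CpG dinucleotides, and none of its bases lay in a region of any list, since the young H3K4me3 began 41 bp inside the gene. The Zic4 sequence (chr9:91368722-91368971, plus strand) holds 4, and all 250 bases lay in H3K27me3 at both ages and in H2AK119ub1 in aged HSCs. The Nkx2-2 sequence (chr2:147186403-147186652, minus strand) holds 8. It lay wholly in H3K27me3 at both ages, and 114 of its bases lay in H2AK119ub1 in aged HSCs. The Sox15 sequence (chr11:69654787-69655036, plus strand) holds 5 CpG dinucleotides, and its RefSeq start lies 277 bp from the GENCODE start. The median over 32851 RefSeq promoters was 6.

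The 40 genes were mostly Polycomb-marked in these cells. In young HSCs 30 of the 40 (75%, Wilson 95% interval 59.8 to 85.8) had H3K27me3 at a promoter, beside 16.0% of all genes. In aged HSCs 24 of 40 (60.0%, 44.6 to 73.7) had it, beside 8.24% of all genes. H2AK119ub1 lay at the promoters of 9 of 40 in young HSCs (22.5%, 12.3 to 37.5), beside 1.91% of all genes, and of 27 of 40 in aged HSCs (67.5%, 52.0 to 79.9), beside 14.0%. H3K4me3 lay at the promoters of 10 of 40 in young HSCs (25.0%, 14.2 to 40.2) and of 4 of 40 in aged HSCs (10.0%, 3.96 to 23.1), beside 33.8% and 23.3% of all genes. The intervals cover counting error over genes only. Many members share a locus, so they are not independent of each other.

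**Figure D1:**
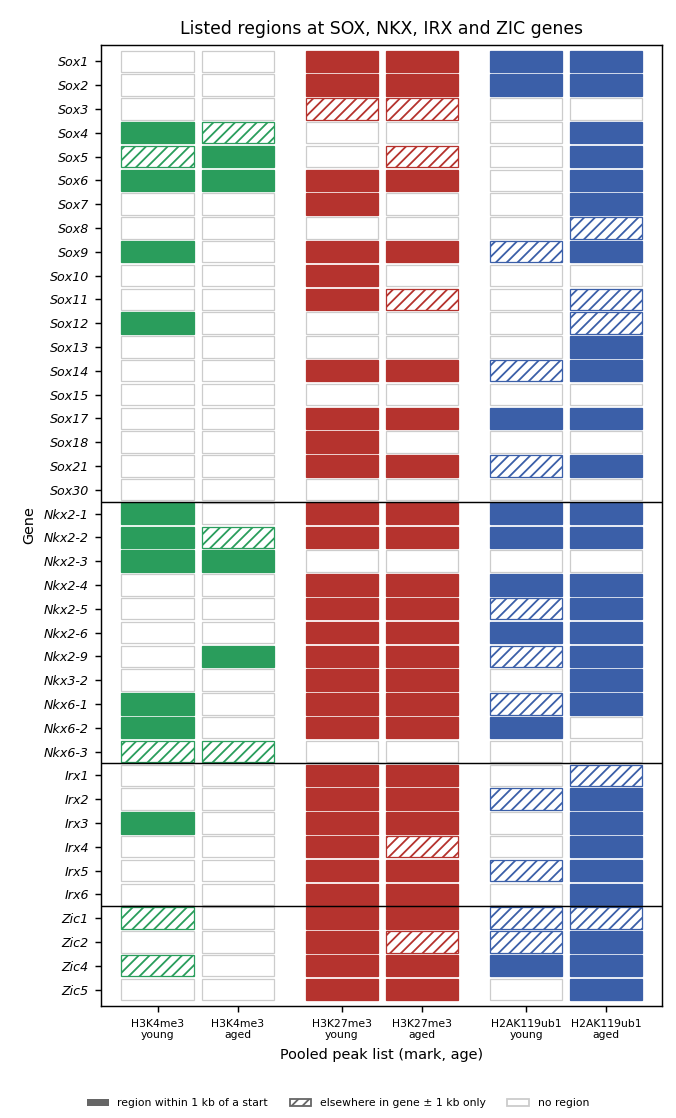
Each row is a gene and each column a pooled list. Filled boxes mark a region within 1 kb of a start site, hatched boxes a region elsewhere in the gene with 1 kb on each side, and pale empty boxes no region. H3K27me3 and aged H2AK119ub1 fill most rows of the NKX, IRX and ZIC families, whereas H3K4me3 is filled for 10 genes in young and 4 in aged HSCs.

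The lists themselves differed in length between the ages, and a count can move with that. They held 11371 and 6723 regions of H3K4me3, 63142 and 20419 of H3K27me3 and 2593 and 17768 of H2AK119ub1 in young and aged HSCs. In the H3K4me3 lists the read pileup could be recovered, with a median of 20 reads at the summit in young and 19 in aged HSCs. For the broad marks the depth is unknown. As a check of the labelled cell type, 12 of 15 HSC and progenitor genes had promoter H3K4me3 in young and 11 in aged HSCs, against 1 and 0 of 11 genes of other lineages. The 3 without it in young HSCs were Kit, Ly6a and Slamf1, the genes of the sort markers c-Kit, Sca-1 and CD150. The 4 without it in aged HSCs were Ly6a, Slamf1, Gata2 and Lmo2. The check thus did not hold for the genes of these sort markers, apart from Kit in aged HSCs. Promoter H3K27me3 was found at 1 of the 15 HSC and progenitor genes at each age.

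The SOX family was the most mixed. Promoter H3K27me3 was found at 11 of 19 SOX genes in young and 7 in aged HSCs, and H2AK119ub1 at 3 in young and 11 in aged HSCs. They are given here by the known SOX subgroups. Sox1 and Sox2, which maintain neural progenitors, and Sox14 and Sox21, which oppose them, had promoter H3K27me3 at both ages. Sox3, their X-linked relative, had H3K27me3 only away from its start, over 1552 bp of the gene in young and 195 bp in aged HSCs.

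At Sox1, H3K27me3 covered 5352 bp in young and 4102 bp in aged HSCs, and H2AK119ub1 covered 1317 and 2365 bp. At Sox2, H3K27me3 covered all 4057 bp of the gene and its flanks in young HSCs, in a single region of 14106 bp that ranked 40th by width among the 63142 regions of that list. In aged HSCs 2117 bp were covered. H2AK119ub1 covered 1137 bp at Sox2 in young and 1786 bp in aged HSCs. Both genes thus carried both Polycomb marks at a promoter at both ages. Sox14 and Sox21 had 3788 and 5033 bp of H3K27me3 in young and 2757 and 2500 bp in aged HSCs. Their H2AK119ub1, away from the promoter in young HSCs (333 and 200 bp), covered 3140 and 3700 bp in aged HSCs and included it.

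The endothelial genes Sox7, Sox17 and Sox18 all had promoter H3K27me3 in young HSCs. Only Sox17 of these 3 had it in aged HSCs. At Sox17 it covered 7777 bp in young and 3670 bp in aged HSCs, while H2AK119ub1 covered 886 bp in young and 4063 bp in aged HSCs. Sox7 had 3780 bp of H3K27me3 in young and none in aged HSCs, where an H2AK119ub1 region of 1640 bp lay across its start. At Sox18 the young H3K27me3 was a single region of 234 bp over the start, and none of the aged lists had a region over the gene.

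Among the neural crest and cartilage genes, Sox9, which drives cartilage and testis development, had promoter H3K27me3 at both ages (6609 and 2961 bp). Its H2AK119ub1 went from 259 bp in the gene to 3712 bp including the promoter. Sox10, a neural crest regulator, had 3415 bp of H3K27me3 in young HSCs and no region of any mark in aged HSCs. Sox8 had no promoter region at either age and 625 bp of H2AK119ub1 within the gene in aged HSCs.

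Sox4, Sox11 and Sox12, close relatives of each other, did not share a state. Sox4 and Sox12 had H3K4me3 and no H3K27me3 in young HSCs, whereas Sox11 had 7130 bp of H3K27me3, with regions at its promoter, and no H3K4me3. At Sox4 the promoter H3K4me3 region lay 19 bp inside the start, with a fold enrichment of 4.30 and a pileup of 22 reads. In aged HSCs the 2 H3K4me3 regions of Sox4 lay 2060 and 2862 bp from the start, and an H2AK119ub1 region of 206 bp lay at the promoter. The Sox12 promoter region had a fold of 2.29, from 24 reads over a background of 9.90, and Sox12 had no H3K4me3 in aged HSCs. Sox11 kept 1359 bp of H3K27me3 in aged HSCs, all of it away from the promoter.

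Sox5, Sox6 and Sox13 are long genes with several starts. Sox6 was the member with the most H3K4me3, 8 regions over 2901 bp in young and 3 regions over 1081 bp in aged HSCs. It also had 8940 bp of H3K27me3 in young and 3780 bp in aged HSCs, and H2AK119ub1 went from none to 5046 bp. All its promoter regions lay at the 5′-most start or the next one, and the other 4 starts had no region within 1 kb in any list. Other regions lay between or near these starts, and 1 young H3K4me3 region of 388 bp lay 208596 bp from the nearest start. Sox5 had promoter H3K4me3 and H2AK119ub1 in aged HSCs only, at 4 closely spaced starts, with an H3K4me3 fold of 4.42 and a pileup of 19 reads. Its only young region was an H3K4me3 region of 626 bp, 571581 bp from the nearest protein-coding start used here. It lay within 1000 bp of a noncoding Sox5 transcript start in the comprehensive GENCODE set. In aged HSCs an H3K4me3 region of 208 bp (fold 3.52) and an H2AK119ub1 region of 462 bp lay in the flank at this 5′ end. H3K4me3 was thus listed at the 5′ end of the gene at both ages, in regions that did not overlap. Sox5 was also the only member with H3K27me3 over the gene in aged HSCs only, 310 bp lying 1563 bp from a start. Sox13 had no region in young HSCs and 521 bp of H2AK119ub1 in aged HSCs.

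Sox15 and the testis gene Sox30 had no region of any mark at either age. The absence of a region says only that none was called in these lists.

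The NKX family was more uniform. The same 9 of 11 NKX genes had promoter H3K27me3 in young and in aged HSCs. H2AK119ub1 lay at the promoters of 5 in young and 8 in aged HSCs, and H3K4me3 at 5 in young and 2 in aged HSCs. The 2 NKX genes without H3K27me3 were Nkx2-3 and Nkx6-3, and these had H3K4me3 at both ages.

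Nkx2-3, which acts in the vessels of the spleen and gut, had 4 H3K4me3 regions over 1538 bp in young and 2 regions over 536 bp in aged HSCs. The young promoter regions had folds of 4.03 and 4.89 and pileups of 19 and 22 reads. A further young region, 1099 bp from the start, had the highest H3K4me3 fold at any member, 5.53, with 25 reads. The aged promoter region had a fold of 4.50 and 22 reads. Nkx6-3, a stomach gene, had a region of 409 bp in young and 238 bp in aged HSCs, 4730 and 4636 bp from its start.

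Nkx2-2, which acts in the pancreas and ventral neural tube, carried all 3 marks at its promoters in young HSCs. H3K27me3 covered 15409 bp in 10 regions in young and 8127 bp in 8 regions in aged HSCs, and H2AK119ub1 covered 2079 bp in 5 regions and 8806 bp in 12 regions. Its promoter H3K4me3 was weak, 212 bp at a fold of 2.59 with 17 reads, and in aged HSCs the only H3K4me3 region lay 7162 bp away.

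Nkx2-1, the thyroid and lung regulator, and Nkx6-2, an oligodendrocyte gene, also carried all 3 marks in young HSCs. Nkx2-1 had 6259 bp of H3K27me3 in young and 3799 bp in aged HSCs, and its H2AK119ub1 went from 1714 to 3877 bp. The H3K4me3 region of Nkx2-1 had a fold of 3.63 and 17 reads, and that of Nkx6-2 had a fold of 3.61 and 16 reads. Nkx6-2 was the only member with promoter H2AK119ub1 in young HSCs only, over 385 bp. Its H3K27me3 went from 2881 to 842 bp.

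Nkx6-1, needed in pancreatic beta cells and motor neurons, had H3K4me3 over its start in young HSCs (fold 4.04, 18 reads) beside 7649 bp of H3K27me3. In young HSCs 4 H2AK119ub1 regions covered 2140 bp of the gene, none at the promoter. In aged HSCs Nkx6-1 had 5052 bp of H3K27me3, 3975 bp of H2AK119ub1 including the promoter, and no H3K4me3. Nkx2-5, the cardiac regulator, had 7755 and 5762 bp of H3K27me3 and 1181 and 3386 bp of H2AK119ub1, with no H3K4me3 at either age. Nkx2-9, of the ventral neural tube, went the other way for H3K4me3, with a promoter region of 218 bp in aged HSCs only (fold 3.54, 15 reads). It lay beside 2863 bp of H3K27me3, which covered 3648 bp in young HSCs.

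At Nkx2-4 the young H2AK119ub1 was a single region of 282 bp, 796 bp from the start, with a fold of 4.48. Its −log10 q-value of 4.55 was the highest of all 2593 regions in the young H2AK119ub1 list. In aged HSCs H2AK119ub1 covered 1141 bp in 2 regions at Nkx2-4, with a highest −log10 q-value of 2.37. At Nkx2-6, a pharyngeal gene, the young region of 200 bp included the start, and H2AK119ub1 covered 2753 bp in aged HSCs. Nkx3-2, of the axial skeleton and spleen, had 4371 and 2984 bp of H3K27me3, and its H2AK119ub1 went from none to 1791 bp.

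All 6 IRX genes had promoter H3K27me3 in young HSCs and 5 had it in aged HSCs. None had promoter H2AK119ub1 in young HSCs, and 5 had it in aged HSCs. The genes lie in 2 clusters, Irx1, Irx2 and Irx4 on chromosome 13 and Irx3, Irx5 and Irx6 on chromosome 8, and no region was shared between neighbours. Irx5 had the second greatest H3K27me3 length outside the ZIC family, 14936 bp in young and 7673 bp in aged HSCs, each in 8 regions. H2AK119ub1 at Irx5 covered 774 and 7267 bp.

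Irx4, a gene of the heart ventricle, had 9980 and 4484 bp of H3K27me3, and in aged HSCs the nearest region lay 1165 bp from a start, which placed it outside the promoter. An H2AK119ub1 region of 315 bp at its promoter in aged HSCs had a fold of 4.76 and ranked 19th of 17768 by −log10 q-value (4.94), the highest rank of an aged H2AK119ub1 region at any member. Irx1 had 7534 and 3781 bp of H3K27me3 and 2165 bp of H2AK119ub1 in aged HSCs, none at the promoter. Irx2 had 6964 and 2688 bp of H3K27me3 and 1365 and 2899 bp of H2AK119ub1. Irx6 had 5070 and 1120 bp of H3K27me3, and its H2AK119ub1 went from none to 359 bp. Irx3 had 4275 and 1865 bp of H3K27me3 and 1916 bp of H2AK119ub1 in aged HSCs. It was the only IRX gene with H3K4me3, 467 bp in young HSCs with a fold of 4.89 and 22 reads. That region covered 1 of the 2 starts and overlapped an H3K27me3 region of 454 bp with a −log10 q-value of 5.95.

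The ZIC genes lie in 2 head-to-head pairs, Zic1 with Zic4 on chromosome 9 and Zic2 with Zic5 on chromosome 14. All 4 had promoter H3K27me3 in young HSCs and 3 had it in aged HSCs. None had promoter H3K4me3 at either age at the starts used here. With every transcript start of the comprehensive GENCODE set, a young region of 230 bp counted for Zic1 and Zic4 alike, and one of 249 bp for Zic4. Zic4 had the greatest length of both Polycomb marks of all 40 genes. H3K27me3 covered 28052 bp in 4 regions in young and 18565 bp in 13 regions in aged HSCs, and H2AK119ub1 covered 2744 bp in 7 regions and 9847 bp in 12 regions.

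The widest H3K27me3 region at any member, chr9:91364904-91383137 (18234 bp, fold 4.05), spanned the starts of both Zic1 and Zic4. It ranked 17th by width in the young list. In aged HSCs 7 regions lay in it and covered 62.4% of its length. Zic1 had 9129 and 4844 bp of H3K27me3. The annotated bodies of Zic1 and Zic4 overlap by 3397 bp, so the pair shares regions and their values are not separate observations. Zic5 had 5149 and 968 bp of H3K27me3, the largest relative difference in the family, while its H2AK119ub1 went from none to 2112 bp. Zic2 had 4470 bp of H3K27me3 in young HSCs, and its 2341 bp in aged HSCs lay 1311 bp or more from the start.

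**Figure D2:**
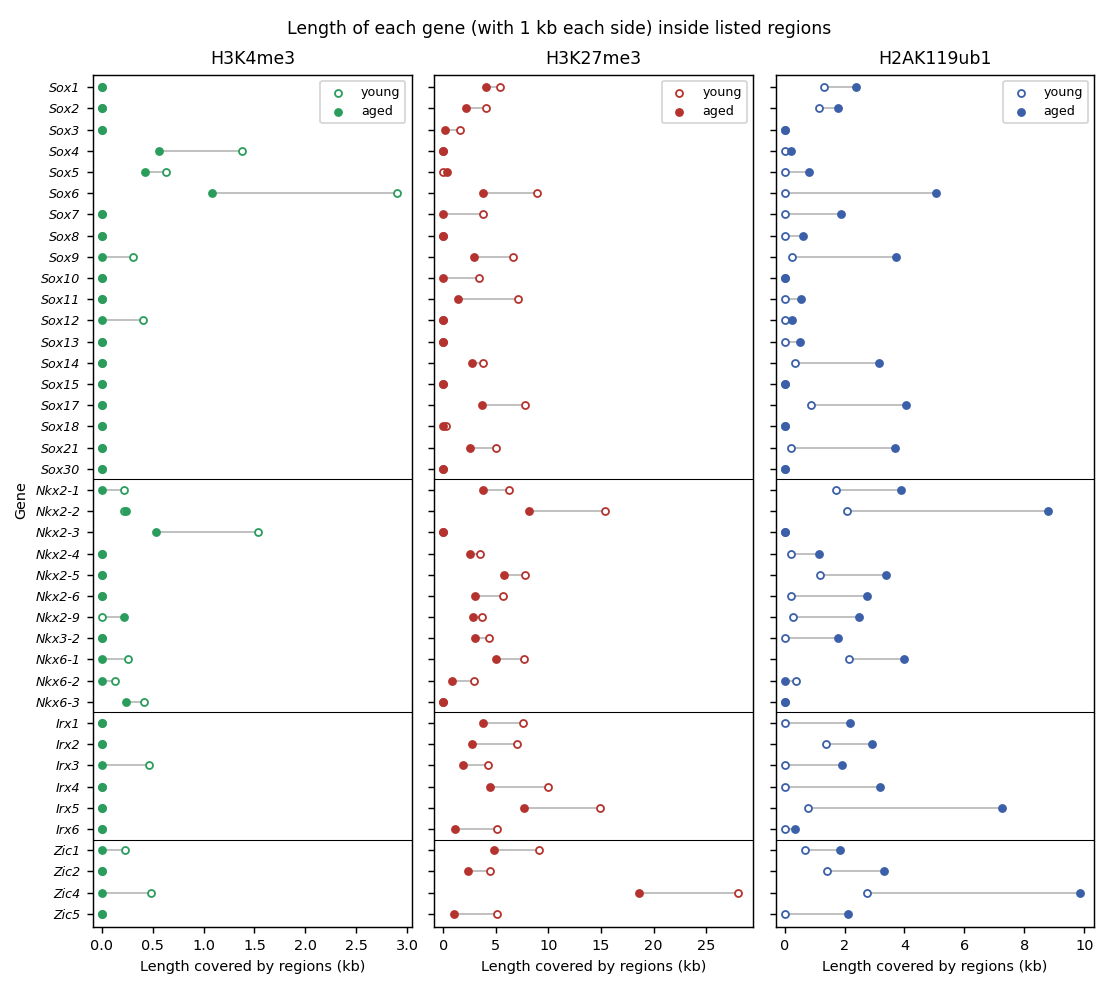
Length of each gene, with 1 kb on each side, that lay inside listed regions (kb), for each mark. Open circles are young and filled circles aged HSCs. For H3K27me3 the filled circle lies left of the open one in all 28 genes covered at both ages, and for H2AK119ub1 it lies right in all 18.

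Most of these genes had H3K27me3 at both ages, over a shorter length in aged HSCs. Of the 30 members with promoter H3K27me3 in young HSCs, 24 (80%) had it in aged HSCs, beside 48.8% of all such genes. The 6 without it in aged HSCs were Sox7, Sox10, Sox11, Sox18, Irx4 and Zic2, and no member had it in aged HSCs only. The number kept depended on the setting. With regions under a −log10 q-value of 2 left out, 16 of 29 members had promoter H3K27me3 at both ages. With promoters of 500 bp either side it was 17 of 29. The share over all genes was not computed at these 2 settings. The covered length was shorter in aged HSCs in 28 of 28 members covered at both ages, with a median aged-to-young ratio of 0.518. Over all genes it was shorter in 96.2%, with a median ratio of 0.286. The same direction was thus found over nearly all genes, and the part of the length left in aged HSCs was greater at the members than in the median gene. With the young list limited to its 20419 regions of highest −log10 q-value, the number of the aged list, the ratio over the 28 members was 0.523 and that over all genes 0.447.

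Over the 40 genes together, H3K27me3 covered 205.6 kb in 100 regions with a mean fold of 3.63 in young HSCs and 104.7 kb in 124 regions with a mean fold of 3.33 in aged HSCs. The ratio was 0.509, beside 0.244 for the whole lists. The aged regions were shorter and more numerous and lay within the young ones. Of the 124 aged regions, 97.6% of the length lay inside young regions, beside 66.4% of the length of the whole aged list. Of the 50 young regions of at least 2 kb at the members, 41 (82.0%) met 2 or more aged regions and 1 met none. Of the 2791 such regions of the whole list, 59.5% met 2 or more and 13.6% met none. The 2 groups were not matched for width, and a wider region has room for more aged regions. At Sox14 a region of 5019 bp already ranked 491st by width in the young list, and many member regions were wider.

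**Figure D3:**
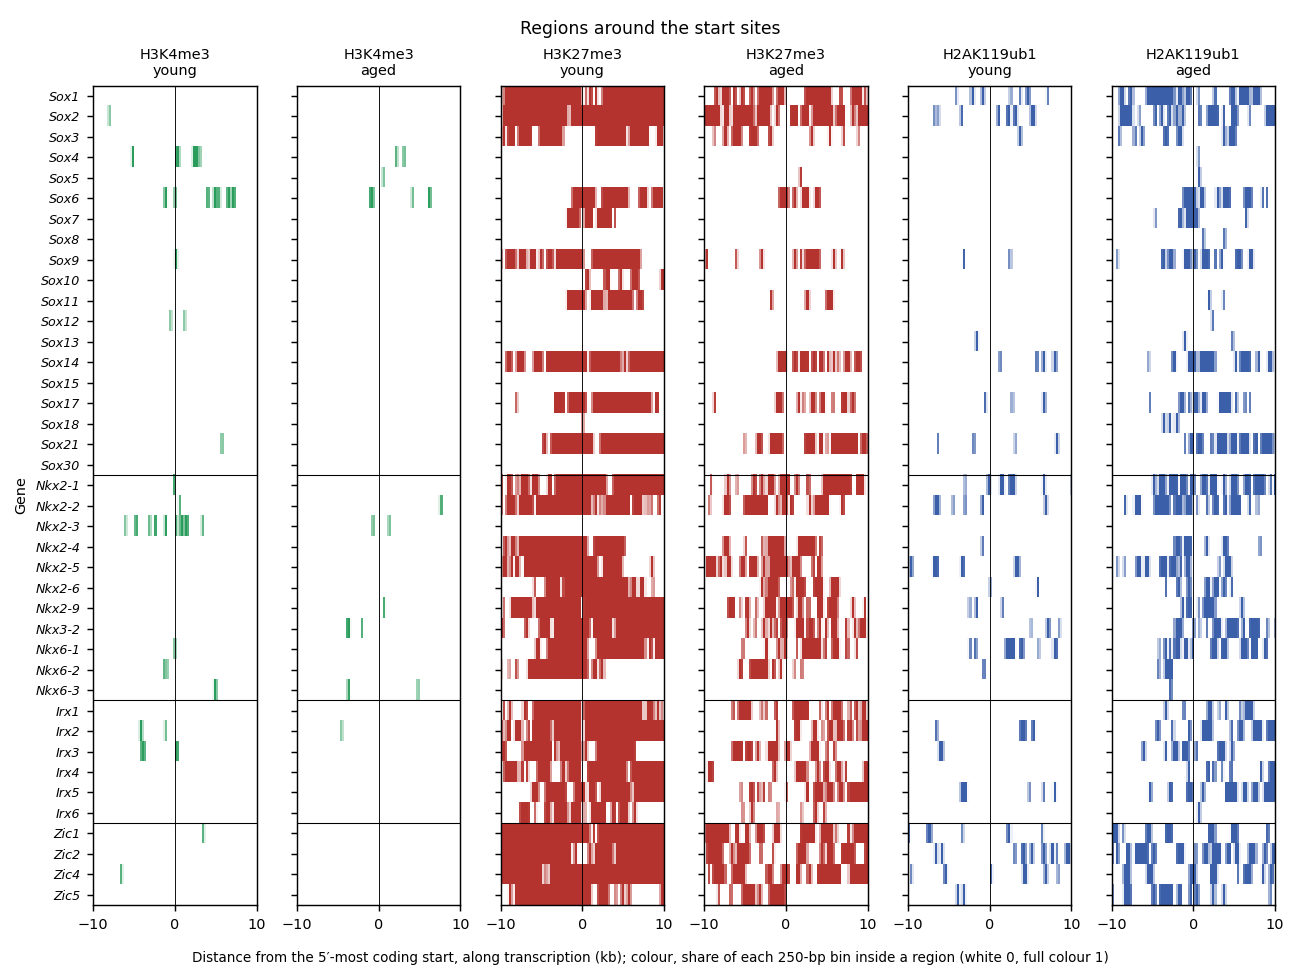
Share of each 250-bp bin inside a listed region, from 10 kb before to 10 kb after the 5′-most protein-coding start, with genes in rows and lists in columns (white 0, full colour 1). Young H3K27me3 fills most of the span for IRX, ZIC and most NKX genes, and aged H3K27me3 and H2AK119ub1 appear as separate blocks within the same spans.

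H3K27me3 reached far beyond the starts. In the 10 kb centred on the 5′-most start, the median gene of the 30 with promoter H3K27me3 in young HSCs had 84.4% of bases inside a region, beside 26.3% for all such genes. In aged HSCs the medians were 44.6% for the 24 members and 11.6% for all such genes. By family, the median over all members in young and aged HSCs was 48.0% and 3.10% for SOX, 89.2% and 48.7% for NKX, 80.4% and 32.8% for IRX and 87.4% and 41.8% for ZIC. From 1000 to 750 bp before the start, the mean over the 40 genes was 70% in young and 34.6% in aged HSCs. In the first 250 bp after the start it was 55.9% and 21.5%. From 500 to 750 bp after the start it was 49.6% and 10.2%, so the mean fell over these bins at both ages. The start base lay in a region for 20 of 30 members with promoter H3K27me3 in young and 11 of 24 in aged HSCs (66.7% and 45.8%, beside 39.1% and 19.0% of all such genes).

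H2AK119ub1 covered more length at these genes in aged than in young HSCs. Of the 31 members without it at a promoter in young HSCs, 19 had it in aged HSCs, beside 12.7% of all such genes. Of the 9 with it in young HSCs, 8 had it in aged HSCs (88.9%, beside 78.4% of all such genes). Length was greater in aged HSCs in 18 of 18 members covered at both ages, with a median ratio of 3.91. Over all genes it was greater in 91.2%, with a median ratio of 3.31. Together the regions covered 18.8 kb in 47 regions (mean fold 3.23) in young and 90.9 kb in 144 regions (mean fold 3.39) in aged HSCs, a ratio of 4.83 beside 7.83 for the whole lists.

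Fewer members had promoter H2AK119ub1 in aged HSCs when the lists were of equal number. With the aged list limited to its 2593 regions of highest −log10 q-value, the number of the young list, 12 members had promoter H2AK119ub1 in aged HSCs against 9 in young HSCs, and over all genes the shares were 2.92% and 1.91%. The covered length was then greater in 10 of 16 members covered at both ages and smaller in 6 (62.5% and 37.5%, beside 60.8% and 39.0% over all genes). The young count moved with the promoter chosen, from 9 members to 16 with 2500 bp either side of the starts and 14 with the starts of all transcripts. With regions under a −log10 q-value of 4 left out at both ages, promoter H2AK119ub1 was found at 1 member at each age, and H3K27me3 was at 18 members in young HSCs and none in aged HSCs.

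The aged H2AK119ub1 lay mostly within the H3K27me3 of young HSCs. Of its length at the members, 91.5% lay inside young H3K27me3 regions and 57.2% inside aged ones, beside 49.8% and 26.4% for the whole list. Young H3K27me3 itself covered 71.2% of the NKX, 79.7% of the IRX and 83.1% of the ZIC genes with their flanks. For the SOX genes, which include the long Sox5 and Sox6, it covered 3.37%. Whether the overlap was greater than this coverage alone would give was not tested. Of the 27 members with promoter H2AK119ub1 in aged HSCs, 24 had promoter H3K27me3 in young HSCs (88.9%, beside 56.3% of all genes with promoter H2AK119ub1 in aged HSCs). The other 3 were Sox4, Sox5 and Sox13, and each of these had 1 region at a promoter of 340 bp or less. Among the 15 members with promoter H3K27me3 at both ages and no promoter H2AK119ub1 in young HSCs, 13 had H2AK119ub1 in aged HSCs, beside 57.5% of all such genes.

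Both Polycomb marks were found together at the promoters of 9 members in young and 21 in aged HSCs, beside 1.65% and 4.99% of all genes. In young HSCs all 9 promoters with H2AK119ub1 also had H3K27me3, as did 86.3% of all such genes. In aged HSCs H2AK119ub1 stood without H3K27me3 at 6 of 40 members (15%, beside 9.0% of all genes), Sox4, Sox5, Sox7, Sox13, Irx4 and Zic2, and at Sox5 it lay with H3K4me3. H3K27me3 stood without H2AK119ub1 at Nkx6-2, Irx1 and Zic1 in aged HSCs, beside 3.25% of all genes, and at 21 members in young HSCs, beside 14.4%.

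H3K4me3 and H3K27me3 were found together at 7 members in young HSCs, Sox6, Sox9, Nkx2-1, Nkx2-2, Nkx6-1, Nkx6-2 and Irx3, beside 2.96% of all genes. In aged HSCs they were together at Sox6 and Nkx2-9, beside 0.792%. Of the 10 members with promoter H3K4me3 in young HSCs, 2 (20.0%) had it in aged HSCs, beside 51.8% of all such genes. Those 2 were Sox6 and Nkx2-3. With both H3K4me3 lists limited to 6723 regions, promoter H3K4me3 was found at 4 members at each age (10.0%). Over all genes the shares were then 23.4% in young and 23.3% in aged HSCs. The lower number in aged HSCs was thus not found with lists of equal number, at the members or over all genes. Of the 27 young H3K4me3 regions at the members, 14 overlapped an H3K27me3 region, 51.9% beside 7.40% of the whole list. Sox6 alone held 8 of the 27 regions, and most of these were among the 14, so the regions are not separate loci. Whether both marks lay on the same histones or in different cells cannot be told apart in pooled HSCs.

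CpG content at the starts was higher in these families than over all genes, and members of high and low CpG content had promoter H3K27me3 in similar shares. Observed over expected CpG within 1 kb of the 5′-most start had a median of 0.714 over the 40 genes and 0.484 over all genes, and 24 of 40 members (60.0%) reached 0.6, beside 34.8% of all genes. In the members with at least 0.6, 19 of 24 had promoter H3K27me3 in young HSCs, and in those under 0.6 it was 11 of 16. Over all genes the shares were 17.4% and 15.3%. Promoter H3K4me3 in young HSCs was found in 6 of 24 and 4 of 16 members (25.0% in both), whereas over all genes it was found in 57.8% with at least 0.6 and 21% under it. By family the median was 0.722 for SOX, 0.559 for NKX, 0.741 for IRX and 0.632 for ZIC.

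**Figure D4:**
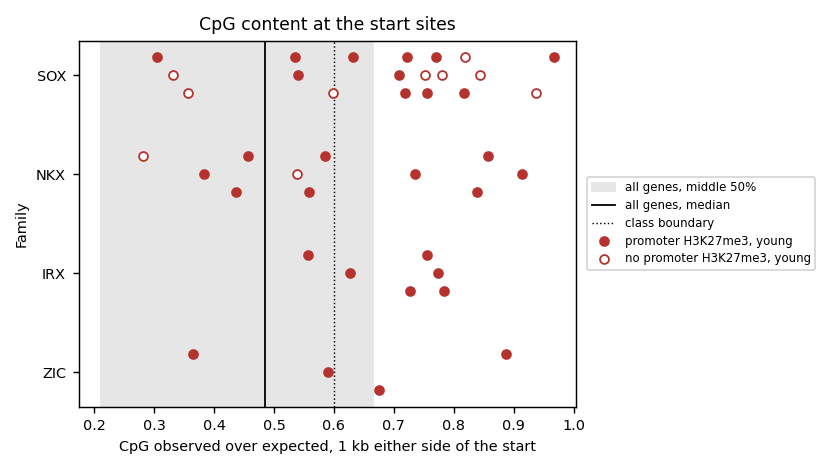
CpG observed over expected within 1 kb of the 5′-most start, by family, 1 point per gene. Filled points had promoter H3K27me3 in young HSCs. The grey band holds the middle 50% of all genes and the line their median of 0.484. Filled and open points both spread over the range, from 0.281 for Nkx6-3 to 0.967 for Sox11.

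The low end held genes in opposite states. Of the 6 lowest values, those of Sox10 (0.305), Zic4 (0.365) and Nkx2-6 (0.382) belonged to genes with promoter H3K27me3 in young HSCs, and those of Nkx6-3 (0.281), Sox5 (0.332) and Sox15 (0.357) to genes without it. At the high end, Sox11 (0.967) and Nkx2-4 (0.915) had promoter H3K27me3, and Sox12 (0.937) had promoter H3K4me3 without it. CpG content was taken at the 5′-most start only.

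The same lists were read for 3 other families of developmental regulators. Promoter H3K27me3 was found at 9 of 9 PAX genes, 13 of 17 T-box genes and 12 of 12 LIM homeobox genes in young HSCs, and at 8, 13 and 12 in aged HSCs. H2AK119ub1 was found at 4, 6 and 5 in young and 8, 12 and 12 in aged HSCs. The SOX shares with promoter H3K27me3, 57.9% in young and 36.8% in aged HSCs, were the lowest of the 7 families. H3K4me3 was found at 3, 4 and 6 in young and 0, 4 and 1 in aged HSCs. None of these differences between families was tested.

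**Figure D5:**
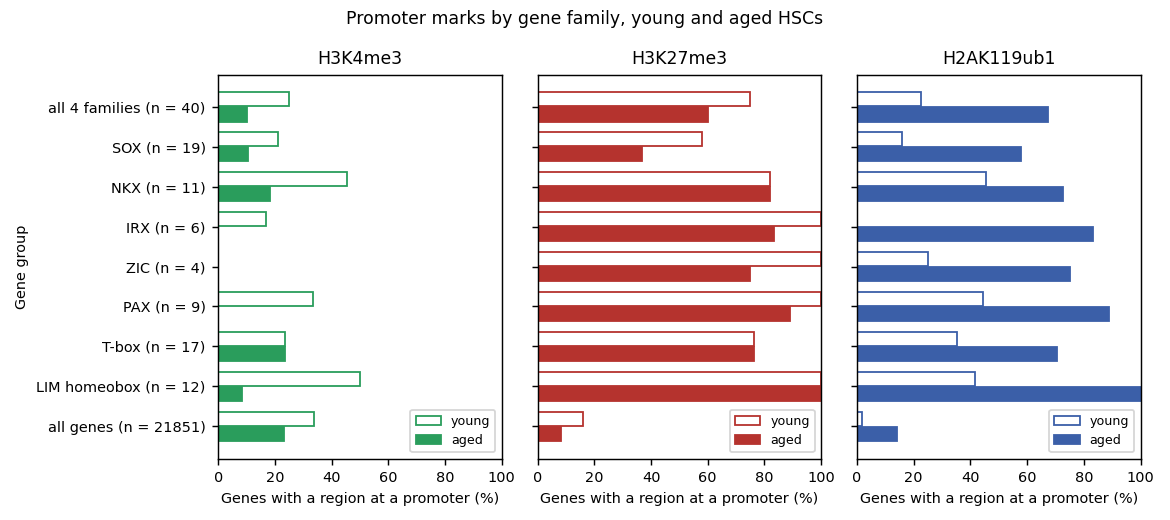
Percent of genes in each group with a region at a promoter, young (open bars) and aged (filled bars), for each mark. In all 7 families the H3K27me3 bars lie above those of all genes (16.0% young, 8.24% aged), and the aged H2AK119ub1 bars lie between 57.9% and 100%.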

How the data were processed

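The authors aligned single reads of cross-linked, MNase-digested and sonicated chromatin to mm10 with Bowtie2, and the submitters' processing notes name MACS2 2.2.6. The deposited lists give for each region a fold enrichment over background (a linear ratio) and the −log10 of its p-value and of its q-value, as the authors' caller wrote them. For broad regions these are averages. H3K4me3 peak names carry a pair of library numbers and those of the broad lists a single one, so it is uncertain that both libraries entered each broad list. Regions on scaffolds were set aside (at most 6 per list). An overlap of at least 1 bp counted as marked.

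Genes and starts came from the basic GENCODE M21 set (41438 protein-coding starts), and base composition from the mm10 sequence. H3K4me3 pileup was recovered from the fold, (pileup + 1) / (background + 1), and the Poisson p-value, within 0.02 of the listed −log10 p for 100.0% of regions. Overlap and recovery code were tested on simulated data. Analyses used Python 3.11.15, numpy 2.4.6, pandas 2.3.3, scipy 1.17.1, pysam 0.24.0, samtools 1.23.1 and matplotlib 3.10.9.

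Members were described by rule if they had promoter H3K4me3 at either age, young promoter H2AK119ub1 or H3K27me3 in aged HSCs only. The rule also took the 3 per family with most young H3K27me3 and those without any region. Not every mark and age is given for each of them. Other members were given to complete each family and were chosen after their values were seen. The members and lists were chosen with earlier results of these data known. Alternatives were other q-value limits, lists of equal number, promoter widths, overlaps, starts and gene windows.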

Additional observations from a re-analysis of the deposited data

How the results depend on the processing

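No paired analysis was possible because there is 1 list per mark and age and none per library. Of 150 recomputed values of 18 results, 104 stayed within 1.5 times the reported value. An overlap of 100 bp, the 5′-most start alone, the gene body alone, joined regions and the comprehensive annotation (added after the data were seen) moved none beyond that. Where values moved, the cause was not tested beyond the fewer or more regions that each setting leaves.
With regions under a −log10 q-value of 2 left out, promoter H2AK119ub1 was found at 3 members in young and 16 in aged HSCs, H3K27me3 with H2AK119ub1 at 3 and 9, and H3K4me3 with H3K27me3 at 1 in aged HSCs. Covered lengths were 69.2 kb for aged H3K27me3 and 4.70 and 54.8 kb for young and aged H2AK119ub1.
With those under 4 left out, H3K4me3 was at 5 members in young and 2 in aged HSCs, H3K27me3 at 18 and 0, and H2AK119ub1 at 1 and 1. H3K4me3 with H3K27me3 gave 1 and 0, H3K27me3 with H2AK119ub1 gave 1 and 0, H3K27me3 at both ages 0 and H2AK119ub1 in aged HSCs only 1. Lengths were 5.10 and 1.44 kb, 101.7 and 0.000 kb, and 0.205 and 0.630 kb for the 3 marks.
With lists of equal number, young H3K4me3 was at 4 members and with H3K27me3 at 2, aged H2AK119ub1 at 12, with H3K27me3 at 11 and in aged HSCs only at 9. Lengths were 4.43 kb for young H3K4me3 and 30.0 kb for aged H2AK119ub1.
With promoters of 500 bp either side, aged H3K4me3 was at 1 member and with H3K27me3 at 0, and young H2AK119ub1 was at 4, all with H3K27me3. With 2500 bp these were 4 for aged H3K4me3 with H3K27me3, 16 for young H2AK119ub1 and 15 with H3K27me3. With the starts of all transcripts in the comprehensive set, young H2AK119ub1 was at 14 members, with H3K27me3 at 14. With 5 kb added to each gene, H3K27me3 covered 360.7 and 180.6 kb and H2AK119ub1 30.1 and 153.2 kb. The single lists limit all of this, since the spread between libraries is unknown.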
